A study of Mus musculus with 77 samples.

Results

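The Notch receptors Notch1, Notch2, Notch3 and Notch4 and the effectors Hes1, Hes5, Hes6, Hey1, Heyl and Nrarp were followed in mouse pancreatic ductal organoids made to express Ngn3. These 10 genes were chosen by name, all 10 have a row among the 46078 genes of the deposited count table, and all 10 have at least 1 read. Organoids are three-dimensional cultures of ductal cells, here from C57BL/6 mice, that were infected with an inducible lentiviral vector that carried GFP only, wild-type Ngn3 joined to GFP (WT Ngn3) or 6S-A Ngn3 joined to GFP, in which the serine-proline phosphorylation sites are changed to alanine. Ngn3, encoded by Neurog3, is the transcription factor that starts endocrine differentiation in the pancreas. After 2 days of induction, GFP-positive cells of the 3 cultures were sorted. After 8 days, GFP-positive WT Ngn3 and 6S-A Ngn3 cells were sorted, and the controls were colorless cells (no-color) out of organoids with either the WT or the 6S-A protein, so that the kind of control differs between the times. Each library came from a pool of 50 cells, and each of the 7 groups had 3 biological replicates. All cells were of passage 2 except replicate 3 of every 8-day group, which was of passage 5. All cultures carried the inducible vectors, so that the no-color cells came from infected organoids too. The labels do not say whether replicates came from separate mice, and p-values measure the spread between these samples.

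Notch receptors sit in the cell membrane and are cut after binding a ligand on a neighbouring cell. The freed intracellular part then joins a DNA-binding protein, Rbpj, and switches on genes such as Hes1, Hes5, Hey1, Heyl and Nrarp. Hes1, Hes5, Hey1 and Heyl are repressors of the basic helix-loop-helix class, and Hes1 holds down Neurog3 in pancreatic progenitors. Nrarp feeds back on the receptor complex. Hes6 belongs to the same family by sequence but is not a usual Notch target. It is known as a gene that proneural factors switch on, and it opposes Hes1.

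Levels are given as counts per 1000000 reads on genes (CPM), scaled over all replicates. The 54 pools of 2 days had 1501002 to 5632412 reads on genes, and the 22 retained pools of 8 days had 2397470 to 9202142. Summed by biological replicate this gave 17757303 to 26627347 reads at 2 days and 2397470 to 17919627 at 8 days, so that 3 reads, taken here as the limit of detection, were worth 0.109 to 0.157 CPM at 2 days and 0.181 to 1.73 CPM at 8 days. The introduced gene followed the labels. Neurog3 ranged from 0.0382 to 0.0726 CPM with GFP only, from 89.4 to 205 CPM with WT Ngn3 and from 99.8 to 198 CPM with 6S-A Ngn3 at 2 days. At 8 days it ranged from 6.89 to 46.4 CPM in WT Ngn3 cells, from 9.86 to 15.4 CPM in 6S-A Ngn3 cells and from 0 to 0.991 CPM in no-color cells. These reads do not separate the introduced from the endogenous Neurog3. The 10 listed ductal markers summed to 10525 to 41646 CPM over all replicates. Spp1 was the most abundant of them in every group, Krt7 was at 872 to 1462 CPM, and Cftr was low at 0 to 15.7 CPM. Replicate 3 of the no-color cells from WT organoids is a single pool of 2397470 reads, the shallowest replicate, and it stood apart for Hes1.

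The stretches of 250 bases upstream of the annotated start of Hes6, Notch1 and Nrarp are shown because these genes rose with WT Ngn3, and that of Hes5 because it holds the letters that Rbpj binds. They are RefSeq sequences of GRCm38.p6, from chr1:91414039-91414288 (minus strand), chr2:26503823-26504072 (minus strand), chr2:25180508-25180757 (plus strand) and chr4:154960673-154960922 (plus strand). RefSeq windows were found for 7 of the 10 genes, without Hes1, Hey1 and Heyl. Capitals mark CANNTG, the E-box core that basic helix-loop-helix proteins bind, and GTGGGAA on either strand, the letters that Rbpj binds.
Hes6: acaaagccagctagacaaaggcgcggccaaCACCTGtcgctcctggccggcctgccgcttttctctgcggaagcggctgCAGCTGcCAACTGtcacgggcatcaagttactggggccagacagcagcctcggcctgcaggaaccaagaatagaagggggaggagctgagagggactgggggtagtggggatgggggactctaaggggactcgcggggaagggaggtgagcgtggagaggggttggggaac
Notch1: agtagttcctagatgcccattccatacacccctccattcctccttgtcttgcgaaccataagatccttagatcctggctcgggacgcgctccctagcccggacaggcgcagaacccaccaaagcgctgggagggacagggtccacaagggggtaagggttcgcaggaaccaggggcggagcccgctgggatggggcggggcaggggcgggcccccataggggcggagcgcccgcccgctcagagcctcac
Nrarp: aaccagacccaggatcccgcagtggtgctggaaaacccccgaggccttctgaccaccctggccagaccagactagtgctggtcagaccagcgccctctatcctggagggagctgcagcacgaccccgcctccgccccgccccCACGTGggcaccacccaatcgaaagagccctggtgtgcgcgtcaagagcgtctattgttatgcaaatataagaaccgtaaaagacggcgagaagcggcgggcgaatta
Hes5: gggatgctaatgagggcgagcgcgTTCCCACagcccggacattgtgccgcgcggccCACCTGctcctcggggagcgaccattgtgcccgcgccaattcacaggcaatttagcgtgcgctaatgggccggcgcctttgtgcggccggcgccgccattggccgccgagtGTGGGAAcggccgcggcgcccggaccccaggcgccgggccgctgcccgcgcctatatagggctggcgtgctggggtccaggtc
The Hes6 stretch held 3 CANNTG matches, which begin at positions -220, -171 and -164 from the start, the Nrarp and Hes5 stretches held 1 each, and the Notch1 stretch held none. GTGGGAA was found at positions -226 and -83 of the Hes5 stretch and in none of the windows of the other 6 genes. Over all 32851 windows of this length, 66.2% held CANNTG and 5.42% held GTGGGAA. A second annotated start of Hes6 had 1 CANNTG match upstream of it.

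At 2 days the clearest change in the family was in Hes6 (ENSMUSG00000067071, mm10 chr1:91411483-91414038). Its level was 76.0, 72.4 and 59.8 CPM in the 3 GFP only replicates. With WT Ngn3 it was 595, 511 and 543 CPM, and with 6S-A Ngn3 it was 781, 681 and 707 CPM. The groups did not overlap, neither by replicate nor, for each Ngn3 group against GFP only, by single pool: all 18 WT Ngn3 pools and all 18 6S-A Ngn3 pools lay above the highest of 18 GFP only pools, at 98.4 CPM. The log2 fold change of Hes6 against GFP only was 2.99 ± 0.12 (SE, n = 3) with WT Ngn3 (adjusted p = 9.96e-09, edgeR) and 3.38 ± 0.13 (n = 3) with 6S-A Ngn3 (adjusted p = 2.96e-09, edgeR). In pools of this kind, fewer cells expressing a gene and less RNA per cell cannot be told apart.

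**Figure D1:**
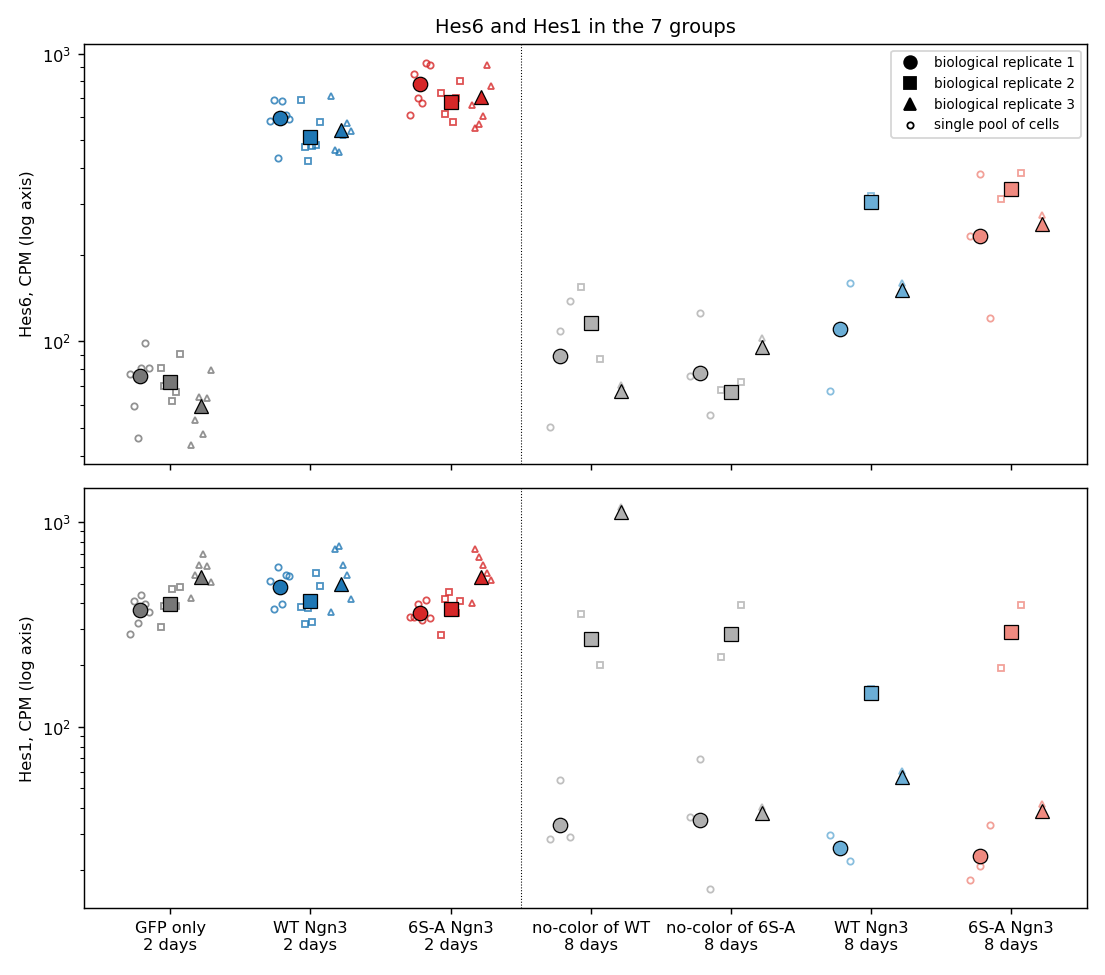
Hes6 (top) and Hes1 (bottom) in CPM on a log axis for the 7 groups. Filled symbols are biological replicates, shaped by replicate number, and small open symbols are single pools of cells. Hes6 lies between 59.8 and 76.0 CPM with GFP only and between 511 and 781 CPM with either Ngn3 at 2 days, while Hes1 lies between 360 and 538 CPM in all 9 replicates of 2 days and spreads from 23.3 to 1119 CPM at 8 days.

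Hes1 (ENSMUSG00000022528, mm10 chr16:30064384-30067796), the main Notch effector of pancreatic progenitors, did not pass the test at 2 days. It was read at 371, 398 and 538 CPM with GFP only, at 481, 412 and 499 CPM with WT Ngn3, and at 360, 376 and 537 CPM with 6S-A Ngn3. The 3 groups overlapped, and replicate 3 was the highest in each. The log2 fold changes against GFP only were 0.09 ± 0.18 (adjusted p = 0.844, edgeR) and -0.05 ± 0.18 (adjusted p = 0.917, edgeR), each with n = 3.

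Set per kilobase of exon, so that the genes can be compared, Hes6 lay below Hes1 with GFP only and above it in Ngn3 cells. The ratio of Hes6 to Hes1 in CPM per kilobase was 0.125 to 0.231 in the GFP only replicates. It was 1.23 to 1.40 with WT Ngn3 and 1.48 to 2.44 with 6S-A Ngn3 at 2 days, above 1 in all 6 replicates. At 8 days it was 2.34 to 4.88 in WT Ngn3 cells and 1.31 to 11.3 in 6S-A Ngn3 cells, again above 1 in all 6. In no-color cells it ranged from 0.0675 to 3.04 for WT organoids and from 0.266 to 2.87 for 6S-A organoids, which overlaps the Ngn3 groups of 8 days.

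Of the 10 genes, 4 rose and none fell with WT Ngn3 at 2 days (Hes6, Notch1, Heyl and Nrarp), where 6.56% of the 23844 genes tested rose and 5.23% fell, 11.8% in all. With 6S-A Ngn3, 4 rose and none fell (Hes6, Notch1, Heyl and Notch2), where 9.43% of all genes rose and 8.62% fell, 18.1% in all. The median log2 fold change of the 10 genes was 0.77 with WT and 0.72 with 6S-A Ngn3, beside 0.01 and 0.02 over all genes. DESeq2 called 5 in each comparison, adding Hes5 with the WT protein and Nrarp with the 6S-A protein, where it called 15.0% and 21.2% of all genes. Both comparisons share the same GFP only samples.

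Among the receptors, Notch1 rose with both proteins. It was read at 30.1, 29.8 and 31.5 CPM with GFP only, at 64.7, 80.8 and 56.4 CPM with WT Ngn3 and at 89.9, 62.2 and 57.2 CPM with 6S-A Ngn3. Every Ngn3 replicate lay above every GFP only replicate. The log2 fold change was 1.15 ± 0.18 with WT Ngn3 (adjusted p = 0.000573, edgeR, n = 3) and 1.19 ± 0.18 with 6S-A Ngn3 (adjusted p = 0.000263, edgeR, n = 3). Both calls were lost with 1 pool per replicate, the first retained repeat, at log2 fold changes of 0.80 and 0.60 (adjusted p = 0.134 and 0.327, edgeR), and in the joint fit of both times, at 1.14 and 1.2 (adjusted p = 0.112 and 0.0551, edgeR). Both held in all 9 fits that left out a replicate. Notch1 shares 1068 of its 14232 exon bases with 0610009E02Rik, which has 227 reads in all libraries, and the strand setting of the counting is not stated in the sources used here.

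Notch2 was the receptor with the highest level per length with GFP only, at 9.27 CPM per kilobase against 2.14 for Notch1, 1.33 for Notch3 and 0.234 for Notch4. It was read at 88.5 to 117 CPM with GFP only, 113 to 134 CPM with WT Ngn3 and 130 to 134 CPM with 6S-A Ngn3. WT Ngn3 overlapped GFP only and 6S-A Ngn3 did not. The log2 fold change was 0.31 ± 0.13 with WT Ngn3 (adjusted p = 0.14, edgeR) and 0.38 ± 0.13 with 6S-A Ngn3 (adjusted p = 0.0483, edgeR), each with n = 3, and the second call lies at the threshold: it held in 2 of the 9 fits that left out a replicate, those without GFP only replicate 3 or WT Ngn3 replicate 3, at log2 fold changes of 0.29 to 0.50 over the 9. Without GFP only replicate 3 Notch2 passed with WT Ngn3 too, at 0.43 (adjusted p = 0.0297, edgeR). Notch3 was read at 8.33 to 12.4 CPM with GFP only and at 12.7 to 15.4 and 13.6 to 15.4 CPM with WT and 6S-A Ngn3, with log2 fold changes of 0.39 ± 0.20 and 0.44 ± 0.20 that did not pass (adjusted p = 0.263 and 0.157, edgeR, n = 3). Notch4 lay between 1.33 and 2.46 CPM in all 9 replicates of 2 days.

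**Figure D2:**
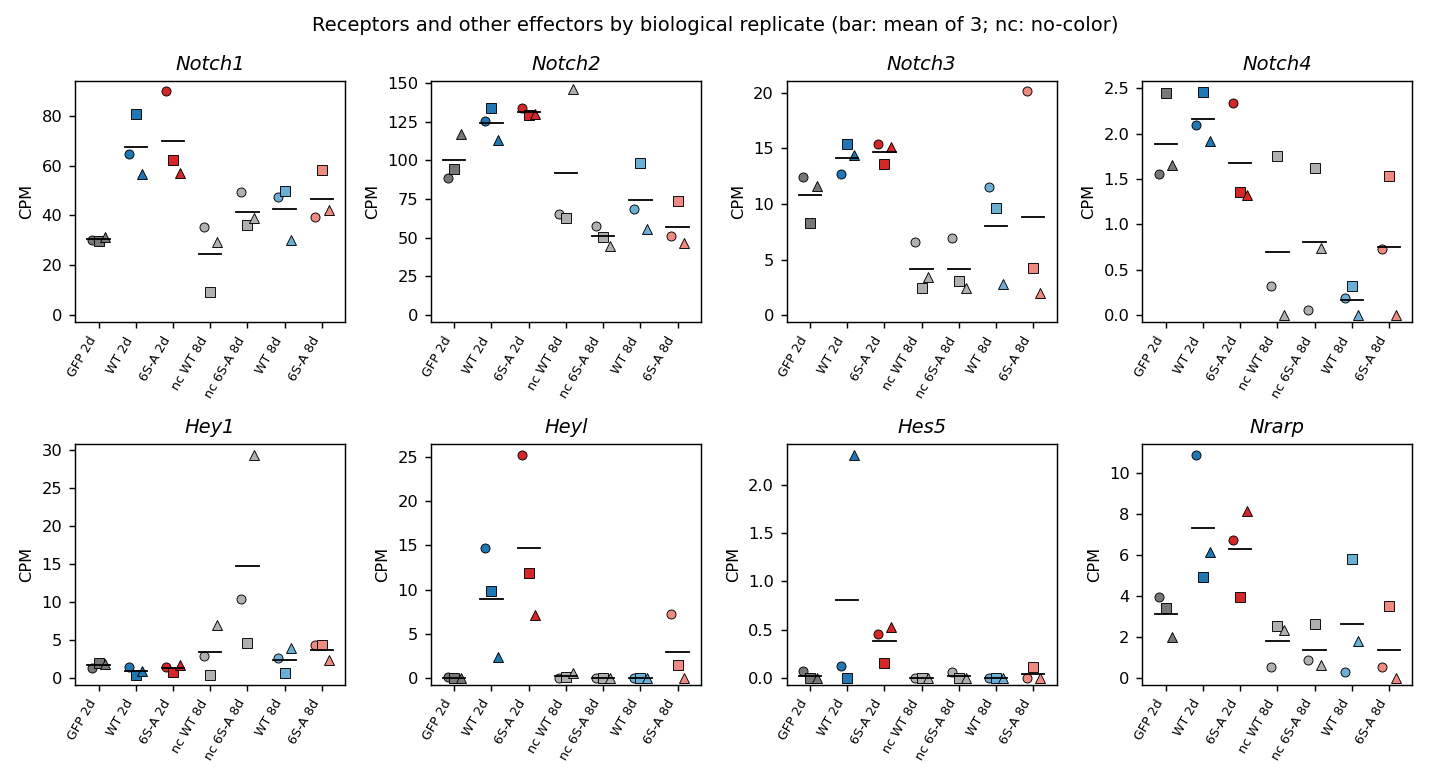
The receptors, Hey1, Heyl, Hes5 and Nrarp in CPM by biological replicate in the 7 groups, each panel with its own linear axis from 0; the bar is the mean of 3 replicates. Notch1 and Heyl lie above GFP only in all 6 Ngn3 replicates of 2 days, and Heyl is at or near 0 in all control replicates.

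Heyl, a Notch-responsive repressor, was almost silent with GFP only, at 3, 0 and 0 reads in the 3 replicates. With WT Ngn3 it was read at 14.7, 9.82 and 2.36 CPM, and with 6S-A Ngn3 at 25.2, 11.9 and 7.13 CPM. Replicate 1 was the highest and replicate 3 the lowest in both groups, and the groups overlapped each other but not GFP only. Over the group, 607 reads with WT Ngn3 stood against 3 with GFP only, a ratio of 236 at equal depth (exact 95% interval 80.2 to 1145), and 942 reads with 6S-A Ngn3 gave a ratio of 372 (127 to 1807). These intervals cover counting error only, since these reads carry no molecular identifiers and are not independent molecules. All 3 GFP only reads came from replicate 1, and 1 pool of WT Ngn3 replicate 1 held 254 of the 607. In alternatives chosen after seeing the data, WT Ngn3 had 149 without that pool (50.7 to 728), 150 without its replicate 1 (50.8 to 734), 154 without GFP only replicate 2 (52.4 to 748) and at least 149 without GFP only replicate 1, with 3 reads over the group in place of 0. With 6S-A Ngn3 the ratio was 235 without its replicate 1 (79.7 to 1142), 243 without GFP only replicate 2 (82.9 to 1180) and at least 236 without GFP only replicate 1. The difference from GFP only passed the test with WT Ngn3 (adjusted p = 0.00123, edgeR) and with 6S-A Ngn3 (adjusted p = 0.000425, edgeR), and in each of the 19 alternative fits of either comparison. Heyl was found in 15 of 18 WT Ngn3 pools, in 18 of 18 6S-A Ngn3 pools and in 2 of 18 GFP only pools, with up to 46.9 and 51.5 CPM in a single Ngn3 pool. Heyl is also known from vessel walls. The 8 endothelial markers summed to 3.87 to 5.96 CPM with GFP only, 8.25 to 11.8 CPM with WT Ngn3 and 5.89 to 13.1 CPM with 6S-A Ngn3 in the replicates. Of the 7 tested, Pecam1 rose with 6S-A Ngn3 and none passed with WT Ngn3. The most abundant of them were Kdr, at up to 9.30 CPM in a replicate, and Esam, at up to 9.16 CPM, while Cdh5, a defining endothelial gene, was at most 0.115 CPM. Kdr had log2 fold changes of 2.31 ± 0.85 and 2.52 ± 0.85 that did not pass (adjusted p = 0.118 and 0.0655, edgeR, n = 3). Of 8 mural and fibroblast markers tested none passed with either protein (edgeR). The part of these markers in the Heyl values was not tested.

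Nrarp was read at 3.95, 3.4 and 1.98 CPM with GFP only, at 10.9, 4.91 and 6.14 CPM with WT Ngn3 and at 6.72, 3.95 and 8.15 CPM with 6S-A Ngn3. The WT Ngn3 replicates lay above GFP only, and 6S-A Ngn3 replicate 2 did not. The log2 fold change was 1.24 ± 0.38 with WT Ngn3 (adjusted p = 0.0478, edgeR) and 1.01 ± 0.38 with 6S-A Ngn3 (adjusted p = 0.0848, edgeR), each with n = 3. The call with WT Ngn3 held in 3 of the 9 fits that left out a replicate. It was lost without any of the 3 GFP only replicates, without WT Ngn3 replicate 1 or 3 and without 6S-A Ngn3 replicate 1, with log2 fold changes of 0.82 to 1.43. It was also lost at nearly the same log2 fold change in the joint fit (1.23, adjusted p = 1, edgeR), with 1 pool per replicate (1.21, adjusted p = 0.69, edgeR) and without technical repeat 3 of replicates 2 and 3 (1.17, adjusted p = 0.0609, edgeR). With 6S-A Ngn3, Nrarp was called by DESeq2 (adjusted p = 0.0409), without a filter on low counts (adjusted p = 0.0221, edgeR) and without 6S-A Ngn3 replicate 2 (adjusted p = 0.0445, edgeR). The call was also made with replicate number as a block in the fit (adjusted p = 0.0367, edgeR). Nrarp shares 2051 of its 2582 exon bases with the antisense gene Gm38287, which has 0 reads, so that its counts depend on how reads in shared bases were assigned.

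Hey1, another Notch-responsive repressor, was low, at 1.31 to 1.91 CPM with GFP only, 0.366 to 1.5 CPM with WT Ngn3 and 0.728 to 1.73 CPM with 6S-A Ngn3. The groups overlapped, with log2 fold changes of -0.84 ± 0.53 and -0.37 ± 0.52 (adjusted p = 0.406 and 0.726, edgeR, n = 3). Hes5 was close to the limit of detection: 2, 0 and 0 reads with GFP only, 3, 0 and 47 with WT Ngn3 and 10, 3 and 12 with 6S-A Ngn3. All but 3 of the 50 WT Ngn3 reads came from replicate 3, where the highest pool reached 10.7 CPM. It did not pass with either protein (adjusted p = 0.0826 and 0.157, edgeR). With WT Ngn3 it was called by DESeq2, without a filter on low counts and without WT Ngn3 replicate 2.

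**Figure D3:**
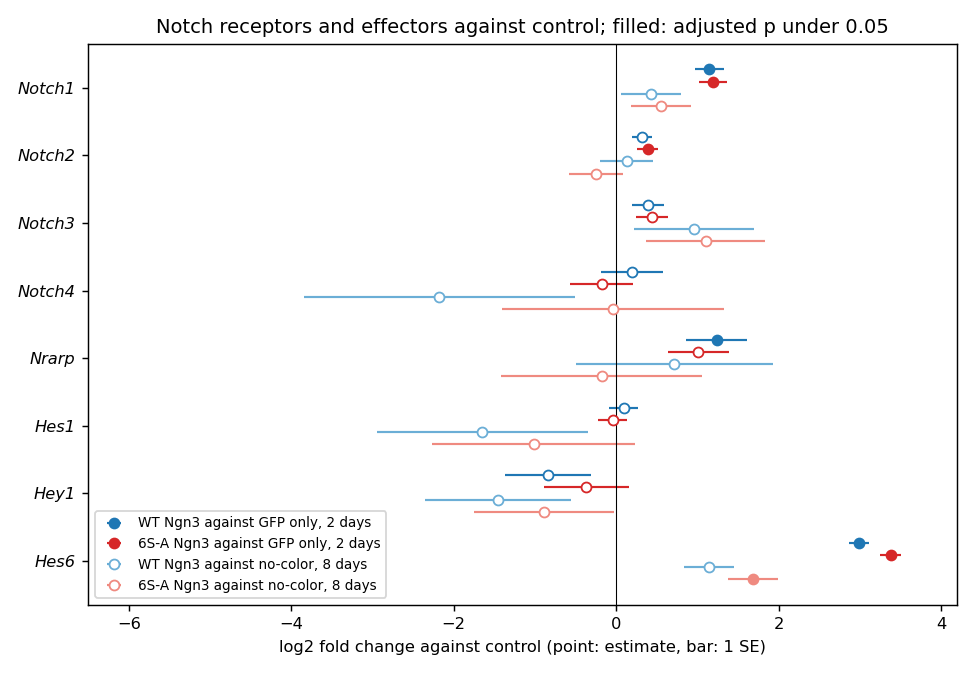
Log2 fold change against control with 1 SE (n = 3) for 8 of the genes in 4 comparisons; filled points have an adjusted p under 0.05 by edgeR's quasi-likelihood test. Hes5 and Heyl are left out because their control groups hold 0 to 3 reads. Hes6 reaches 2.99 and 3.38 at 2 days and 1.14 and 1.69 at 8 days, and Hes1 lies at 0.09 and -0.05 at 2 days.

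Between the proteins, none of the 10 genes passed the test at 2 days (edgeR), where 0.0126% of all genes did. At an unadjusted p under 0.05 there was 1 (Hes6), where 5.79% of all genes lay, and DESeq2 called none. Hes6 was higher with 6S-A Ngn3 by 0.39 ± 0.12 on the log2 scale (n = 3), its replicate ranges did not overlap (681 to 781 against 511 to 595 CPM), and it failed the correction over all genes (adjusted p = 0.515, edgeR). With 1 pool per replicate, the first retained repeat, the difference was 0.01. With replicate number as a block in the fit it was 0.39 and passed (adjusted p = 0.0396, edgeR). The labels do not give these numbers as pairs, and they were not taken as pairing. Hes1 differed by -0.14 ± 0.18 with overlapping replicates (adjusted p = 1, edgeR, n = 3).

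At 8 days Hes6 was still the member of the family with the clearest difference from control. It was read at 88.8, 116 and 67.1 CPM in no-color cells of WT organoids and at 77.6, 66.6 and 95.9 CPM in those of 6S-A organoids. GFP-positive WT Ngn3 cells had 111, 304 and 150 CPM, and 6S-A Ngn3 cells had 233, 338 and 257 CPM. All 3 6S-A Ngn3 replicates lay above all 6 no-color replicates, while WT Ngn3 replicate 1 lay within their range. Against the mean of both no-color groups, the log2 fold change was 1.69 ± 0.31 with 6S-A Ngn3 (adjusted p = 0.00731, edgeR, n = 3) and 1.14 ± 0.31 with WT Ngn3 (adjusted p = 0.108, edgeR, n = 3). The call with 6S-A Ngn3 held in all 22 alternative fits, with log2 fold changes of 1.51 to 1.87. That with WT Ngn3 was made in 4 of 22, DESeq2 among them (adjusted p = 0.0343). Between the proteins Hes6 differed by 0.54 ± 0.37 (adjusted p = 1, edgeR, n = 3), and their replicates overlapped. With scran size factors the fold changes of 4 abundant genes of the family moved up by 0.26 (WT Ngn3) and 0.22 (6S-A Ngn3) in the median, and 93.5% rather than 81.1% of the genes called with WT Ngn3 were higher.

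Of the 9 genes tested at 8 days, Hes6 was called with 6S-A Ngn3, where 1.37% of all genes rose and 1.71% were called, and none with WT Ngn3 (edgeR), where 0.914% of all genes were called. With WT Ngn3, 1 of the 9 had an unadjusted p under 0.05, where 10.5% of all genes did, and DESeq2 called 1, where it called 2.79% of all genes, Hes6 in both cases. None was called between WT and 6S-A Ngn3 cells or between the no-color groups, where 0.0% of all genes were called. At an unadjusted p under 0.05 there were 1 (Heyl) and 2 (Notch2 and Hey1), where 2.11% and 8.37% of all genes lay, and DESeq2 called none in either. Hes5 had at most 1 read in any 8-day replicate and was not tested.

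Hes1 at 8 days differed widely between replicates of a group, and much the same way in most groups. Replicate 1 of the 4 groups held 23.3 to 34.8 CPM and replicate 2 held 146 to 290 CPM. Replicate 3, of passage 5, held 37.7 to 56.9 CPM in 3 groups and 1119 CPM in no-color cells of WT organoids. These levels lie below the 360 to 538 CPM of 2 days in 11 of 12 replicates. The number of cultures behind each replicate is not given in the labels, and passage, culture and library cannot be told apart for replicate 3. The log2 fold changes against no-color cells, -1.65 ± 1.29 with WT and -1.02 ± 1.25 with 6S-A Ngn3, did not pass (adjusted p = 0.729 and 0.842, edgeR, n = 3). Without replicate 3 of the no-color cells of WT organoids they were -0.84 and -0.20 (adjusted p = 0.873 and 0.984, edgeR). Without replicate 2 of the WT Ngn3 cells the first was -2.52, and without replicate 2 of the 6S-A Ngn3 cells the second was -2.95, neither past the threshold (edgeR). Without a filter on low counts Hes1 was called with WT Ngn3, at -1.65 (adjusted p = 0.001, edgeR), and also between the no-color groups.

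**Figure D4:**
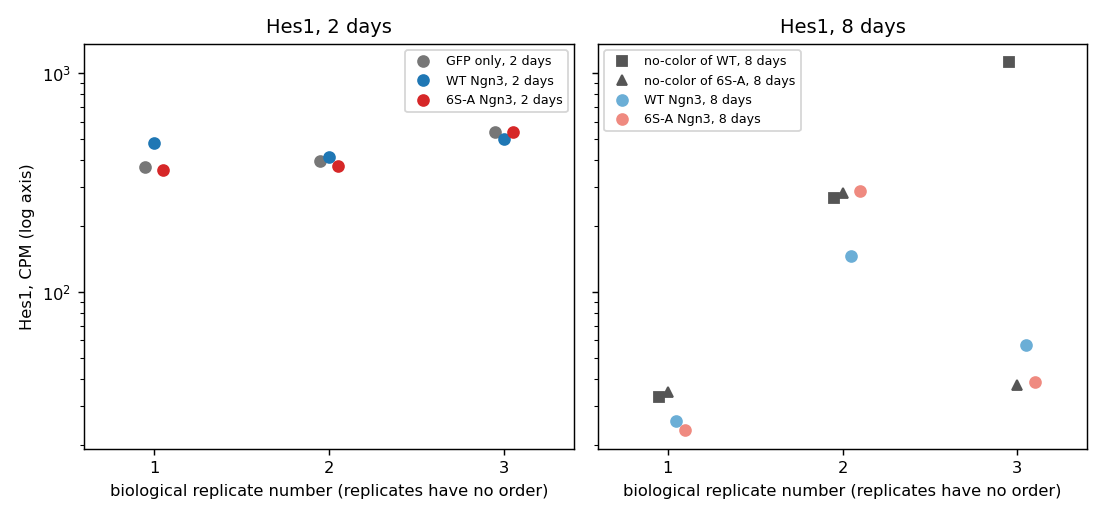
Hes1 in CPM on a log axis by biological replicate number at 2 days (left) and 8 days (right); each symbol and color is a group, and numbers name replicates without order. At 2 days the 3 groups lie between 360 and 538 CPM; at 8 days replicate 2 holds 146 to 290 CPM in all 4 groups, and no-color cells of WT organoids reach 1119 CPM in replicate 3.

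The receptors did not pass at 8 days. Notch1 held 9.41 to 35.3 CPM and 36.2 to 49.5 CPM in the no-color cells of WT and 6S-A organoids, 30.2 to 49.9 CPM in WT Ngn3 cells and 39.4 to 58.3 CPM in 6S-A Ngn3 cells, with log2 fold changes of 0.43 ± 0.37 and 0.55 ± 0.37 (adjusted p = 0.753 and 0.624, edgeR, n = 3). Hey1 was 2.94, 0.328 and 6.94 CPM in no-color cells of WT organoids and 10.4, 4.60 and 29.4 CPM in those of 6S-A organoids, higher by 2.26 ± 1.01 on the log2 scale in the latter (adjusted p = 0.588, edgeR, n = 3) by 1.13 without its replicate 3 and by 3.14 without replicate 3 of the WT organoids. Against the mean of both, Hey1 changed by -1.45 ± 0.90 in WT Ngn3 cells and -0.89 ± 0.86 in 6S-A Ngn3 cells (adjusted p = 0.611 and 0.779, edgeR, n = 3). Notch2 differed by -0.82 ± 0.38 on the log2 scale in no-color cells of 6S-A against WT organoids (adjusted p = 0.595, edgeR, n = 3). That difference leaned on replicate 3 of the WT organoids, at 146 CPM against 62.9 and 65.6 CPM in the other replicates, and was -0.34 without it.

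Heyl at 8 days rested on few pools. It had 120, 12 and 0 reads in the 3 6S-A Ngn3 replicates, no read in the 4 retained pools of WT Ngn3 cells and 2 reads in the 6 no-color replicates. The WT Ngn3 pool of replicate 2 that was left out for its depth had 9 reads (10.8 CPM). A single 6S-A Ngn3 pool of replicate 1 carried all 120 of its reads (26.8 CPM). The 132 reads against 2 gave a ratio of 129 at equal depth (exact 95% interval 35.1 to 1078, counting error only). Without that pool 12 reads gave 13.6 (3.03 to 125), without 6S-A Ngn3 replicate 1 they gave 24.7 (5.5 to 227), and without replicate 2 or 3 of the no-color cells of WT organoids the ratio was 220.2 (38.8 to 8761) or 251 (44.3 to 9996). The difference did not pass (adjusted p = 0.118, edgeR). It was called without a filter on low counts and in the joint fit of both times. Nrarp held 0.279 to 5.80 CPM in WT Ngn3 cells, 0 to 3.53 CPM in 6S-A Ngn3 cells and 0.523 to 2.61 CPM in no-color cells, with full overlap of the groups.

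The joint fit of both times asked whether the difference from control changed. For Hes6 the difference moved by -1.85 ± 0.39 on the log2 scale with WT Ngn3 (adjusted p = 0.186, edgeR, n = 3) and by -1.69 ± 0.39 with 6S-A Ngn3 (adjusted p = 0.265, edgeR, n = 3), neither past the threshold. None of the genes of the family passed, where 0.0% and 0.0102% of 19589 genes did. At an unadjusted p under 0.05 there was 1 for each protein, where 5.23% and 5.64% of all genes lay, and DESeq2 called 1 for each, where it called 0.302% and 0.327% of all genes, Hes6 every time. With WT Ngn3, Hes6 also passed without replicate 2 of the WT Ngn3 cells of 8 days, at -2.37 (adjusted p = 0.0239, edgeR). The change differed between the proteins by 0.16 ± 0.41 (adjusted p = 1, edgeR), with 1 gene of the family (Heyl) under 0.05 unadjusted, where 2.27% of all genes lay, and none by DESeq2. Since the controls were GFP-positive cells at 2 days and no-color cells at 8 days, time and kind of control cannot be told apart.

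Over the 7 groups the order of Hes6, from the highest mean, was 6S-A Ngn3 at 2 days (723 ± 52 CPM), WT Ngn3 at 2 days (550 ± 42), 6S-A Ngn3 at 8 days (276 ± 55), WT Ngn3 at 8 days (188 ± 102), no-color cells of WT organoids (90.7 ± 24.6) and of 6S-A organoids (80.0 ± 14.8), and GFP only (69.4 ± 8.5; SD, n = 3 each). The first 3 were apart from each other by replicate, and each later group overlapped its neighbour. Over all 21 replicates, the genes whose log2 levels followed Hes6 most closely were Neurog3 (Pearson r = 0.96), Tff3 (0.96) and Hrh3 (0.95), out of 14635 genes. Those closest to Hes1 were Tmem238 (0.97), Jund (0.96) and Gm4799 (0.94). These correlations are descriptions over 21 replicates that share groups and replicate numbers.

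Within the 18 pools of each 2-day group, Hes6 and Neurog3 tended to be high in the same pools, with Spearman's rho of 0.67 (WT Ngn3) and 0.60 (6S-A Ngn3) (0.53 and 0.42 within replicates). Hes1 and Neurog3 had rho of -0.21 and -0.61 (-0.30 and -0.47 within replicates). Hes1 and Hes6 had -0.28 with GFP only, -0.34 with WT and -0.28 with 6S-A Ngn3, and 0.17, -0.47 and -0.15 within replicates, so that the sign with GFP only turned. Pools share depth with these levels: Hes6 had rho of 0.57, 0.63 and 0.69 with the reads on genes in the same groups, Neurog3 had 0.55 (WT Ngn3) and 0.40 (6S-A Ngn3), and the part of depth in the other relations was not tested.

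The rest of the pathway was read from 68 further genes, of which 65 were tested at 2 days and 60 at 8 days. With WT Ngn3 at 2 days 9 rose and 3 fell, where 6.56% of all genes rose and 5.23% fell. With 6S-A Ngn3 16 rose and 6 fell, where 9.43% of all genes rose and 8.62% fell. The counts by role are to be read against the same shares. The medians were 0.10 and 0.16 on the log2 scale, beside 0.01 and 0.02 for all genes. At 8 days 2 rose and none fell with either protein, Dll4 and Bhlhe41, where 0.741% (WT Ngn3) and 1.37% (6S-A Ngn3) of all genes rose.

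The ligands moved in both directions. Dll4, a ligand of the Delta class, was at 0.369 to 0.798 CPM with GFP only, at 7.68 to 28.6 CPM with WT Ngn3 and at 9.82 to 32.6 CPM with 6S-A Ngn3. Its log2 fold changes were 4.70 ± 0.66 and 5.16 ± 0.67 (adjusted p = 0.00111 and 0.000403, edgeR, n = 3). At 8 days it was at most 0.578 CPM in no-color cells, 6.61 to 17.5 CPM in WT Ngn3 cells and 0.309 to 36.5 CPM in 6S-A Ngn3 cells, whose lowest replicate lay within the no-color range. It passed with both (adjusted p = 0.00587 and 0.00245, edgeR). Jag1, a ligand of the Jagged class, fell by 0.91 ± 0.12 with WT Ngn3 and by 1.16 ± 0.12 with 6S-A Ngn3 on the log2 scale (adjusted p = 0.000143 and 1.05e-05, edgeR, n = 3), from 161 to 202 CPM with GFP only to 94.5 to 97.7 and 74.1 to 85.9 CPM. Jag2, of the same class as Jag1, went the other way. It was at 10.8 to 12.5 CPM with GFP only, 15.1 to 17.2 CPM with WT Ngn3 and 19.6 to 23.2 CPM with 6S-A Ngn3. Jag2 passed with 6S-A Ngn3 (adjusted p = 0.00158, edgeR) and not with WT Ngn3. Of the 7 ligands listed 1 rose and 1 fell with WT Ngn3, and 3 rose and 1 fell with 6S-A Ngn3.

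Of the 5 genes for sugar transfer onto Notch, 3 rose with each protein and none fell. These were Mfng and Lfng, which add sugars that set the choice of ligand, and Pofut1, which adds the first one. Mfng rose by 4.04 ± 0.53 and 4.29 ± 0.54 on the log2 scale (adjusted p = 0.000186 and 6.34e-05, edgeR, n = 3). Lfng rose by 0.97 ± 0.27 and 1.54 ± 0.28 (adjusted p = 0.0328 and 0.00122, edgeR, n = 3). Of the 10 genes for receptor cleavage none passed with WT Ngn3 and Ncstn rose with 6S-A Ngn3. Of the 8 nuclear complex genes, Rbpj among them, none passed with WT Ngn3, and Maml3 rose and Maml2 fell with 6S-A Ngn3.

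The lists of corepressor and trafficking genes held further calls. Of the 11 genes listed as corepressors 3 rose with each protein, none fell with WT Ngn3 and 1 fell with 6S-A Ngn3. Of the 15 trafficking genes 1 rose and 1 fell with WT Ngn3, and 4 rose and 1 fell with 6S-A Ngn3. Tle2 and Tle6, from the first list, rose with both proteins. Tle6 rose by 1.79 ± 0.25 and 1.91 ± 0.25 on the log2 scale (adjusted p = 0.000273 and 9.18e-05, edgeR, n = 3). Numbl, a relative of the Notch antagonist Numb, rose by 1.81 ± 0.26 and 2.07 ± 0.27 (adjusted p = 0.000485 and 0.000104, edgeR, n = 3). Neurl3 fell by 1.45 ± 0.19 and 1.93 ± 0.19 (adjusted p = 0.00018 and 1.07e-05, edgeR, n = 3). Of the other Hes and Hey relatives, Bhlhe41, a repressor of the same class, rose at both times: by 2.18 ± 0.19 with either protein at 2 days (adjusted p = 8.09e-06 and 4.11e-06, edgeR) and by 2.08 ± 0.42 and 2.24 ± 0.42 at 8 days (adjusted p = 0.0246 and 0.00793, edgeR), each with n = 3.

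**Figure D5:**
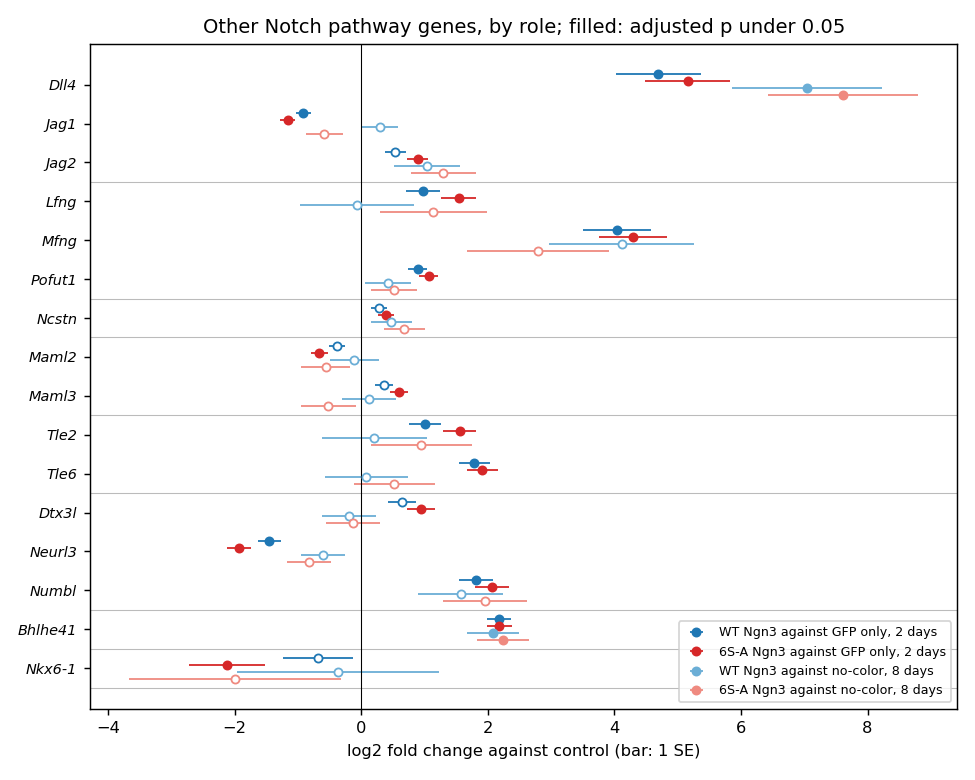
Log2 fold change against control with 1 SE (n = 3) for named genes of the wider Notch pathway, ordered by role from ligands at the top to a duct factor at the bottom; filled points have an adjusted p under 0.05. Dll4 and Mfng lie furthest to the right at 2 days, at 4.04 to 5.16, Jag1 and Neurl3 lie left of 0 at that time, and at 8 days Dll4 and Bhlhe41 are filled.

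These changes at 2 days went with a change of the cells as a whole, whose part in them was not tested. All 10 endocrine markers rose with either protein, from a sum of 0.83 to 2.33 CPM with GFP only to 204 to 1050 CPM with WT Ngn3 and 501 to 1084 CPM with 6S-A Ngn3. Of the 10 ductal markers 5 fell and 2 rose with each protein, and their sum went from 17142 to 19181 CPM with GFP only to 11915 to 12611 CPM and 10525 to 10868 CPM. Of 8 cell cycle genes 6 fell with WT and 7 with 6S-A Ngn3. Over all genes 6.56% rose and 5.23% fell with WT Ngn3, and 9.43% rose and 8.62% fell with 6S-A Ngn3. The 8 acinar genes summed to 0.786 to 5.67 CPM in the 9 replicates, with Cpa1 at 0 reads, and the 6 immune genes to 4.60 to 8.61 CPM. Of the 4 acinar genes tested, 1 fell with WT Ngn3 and none passed with 6S-A Ngn3 (edgeR). At 8 days the endocrine sum was 0.494 to 7.15 CPM in no-color cells, 28.4 to 1795 CPM in WT Ngn3 cells and 165 to 2099 CPM in 6S-A Ngn3 cells.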

How the data were processed

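The deposited table holds raw read counts per gene, which the authors made with HTSeq 0.5.3p3 from GSNAP alignments to mm10, per the labels and the methods. Libraries were made from pools of 50 sorted cells by Smart-seq2, without molecular identifiers. The strand setting of the counting is not given in the sources used here. Of all reads 22.5% were not aligned, 14.4% fell in no feature and 8.06% were ambiguous, and these stayed out of library sizes. Symbols were matched for 45143 of 46078 gene identifiers.

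Following the methods, libraries with over 30% spike-ins, under 1000000 reads on genes or under 10000 detected genes were left out, which removed 1 of the 77 libraries used here. The methods count more samples as left out than this, and the difference was not resolved. Pools of one biological replicate were summed, which gave 21 replicates. Genes had to be detected in 5 or more libraries of their time point, and they entered the test in edgeR 4.0.16 (R 4.3.3), using TMM scaling, the robust quasi-likelihood test and Benjamini-Hochberg adjustment over all genes tested at a threshold of 0.05. Each time point was fitted with all of its groups, the control of 8 days was the mean of both no-color groups, and changes between the times came from 1 fit of all 7 groups. Levels are CPM with TMM over all 21 replicates. Likeness was Pearson's r of log2(CPM + 1) among genes with a mean of at least 1 CPM. Intervals are exact at 95%. The code was tested on simulated data.

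The genes and the lists were chosen with earlier results of these data known. The text names all 10 genes, the introduced gene and, in each pathway group, at most 3 genes with the smallest adjusted p; some of these are not reported here. Alternatives were scran 1.30.0 and DESeq2 1.42.0 size factors, the DESeq2 test, other gene filters, all libraries, fewer technical repeats, a replicate block, a joint fit, the own no-color group as control and leaving out each replicate. Relations over pools without technical repeat 3 of replicates 2 and 3 were added after seeing the data, because repeats 2 and 3 there differed by a chi-square of 1.61 to 2.44 per gene, against 5.41 to 60.8 in 143 other pairs. Since no pair fell to sampling noise, each pool was kept.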

Additional observations from a re-analysis of the deposited data

Results flagged for a closer look

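Single pools were compared within the groups of 8 days, which hold 4 to 6 pools, and in 9 of 36 tests the highest pool lay far from the rest. For independent samples chance gives about 1 in 20, but pools of 1 replicate are not independent and 3 of the 9 rest on 1 read, so that 9 of 36 cannot be set against that share. Hes1 stood at 1181 CPM in the only pool of replicate 3 of the no-color cells of WT organoids, with the next pool at 355 CPM. Hey1 stood at 31.6 CPM in the pool of replicate 3 of the no-color cells of 6S-A organoids. Heyl stood at 26.8 CPM, or 120 reads, in a 6S-A Ngn3 pool of replicate 1. Among the no-color pools of WT organoids, Notch3 reached 12.6 CPM in a pool of replicate 1, Notch4 reached 4.03 CPM in a pool of replicate 2, and Heyl reached 0.610 CPM from 1 read in replicate 3. Among those of 6S-A organoids, Notch4 reached 2.98 CPM in a pool of replicate 2, and Hes5 reached 0.27 CPM from 1 read. Hes5 likewise reached 0.227 CPM from 1 read in a 6S-A Ngn3 pool.

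The library left out for its depth, a WT Ngn3 pool of 8 days in replicate 2 with 849278 reads on genes, lay above every no-color pool for 5 genes. These were Notch1 at 137 CPM, Notch2 at 208 CPM, Notch3 at 17.99 CPM, Hes6 at 161 CPM and Heyl at 10.8 CPM. The Heyl level rests on 9 reads, and the retained WT Ngn3 pools of 8 days had none.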

How the results depend on the processing

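Hes6 passed the test at 2 days in all 19 alternatives of either comparison with GFP only and with 6S-A Ngn3 at 8 days in all 22. For the log2 fold changes of the 10 genes printed above there were 618 alternative values. Of these, 572 kept their direction and side of the threshold, 21 lost the call, 15 gained it and 10 changed sign. The causes were not tested. Genes with no printed fold change, such as Heyl, are not in this count. The genes of the wider pathway were not followed through the alternatives.

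The numbers of genes called moved by over 1.5 times in these settings. With only the first technical repeat they were 1216 (WT Ngn3) and 1677 (6S-A Ngn3) at 2 days against 2810 and 4305, 63 between the proteins at 2 days against 3, and 111 for WT Ngn3 at 8 days against 180. In the joint fit they were 437, 878 and 0 at 2 days, 797 and 1281 at 8 days against 180 and 337, and 7 between no-color groups against 0. By DESeq2 they were 97 between the proteins at 2 days, 545 and 822 at 8 days and 8 between no-color groups. Without a filter on low counts they were 100, 724, 1044 and 352 in the same order, and 8 between the proteins at 8 days against 0. With the own no-color group as control they were 49 and 115. Without technical repeat 3 of replicates 2 and 3 there were 5 between the proteins at 2 days, and over the 16 pools left in a group, a choice made after seeing the data, rho of Hes1 with Hes6 with 6S-A Ngn3 was -0.13.

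Of the 10 genes, 2 were called in either comparison with GFP only with the first repeat alone or in the joint fit. At 8 days WT Ngn3 had 1 by DESeq2 and in the joint fit and 2 (Hes1 and Hes6) without the filter, 6S-A Ngn3 had 2 (Hes6 and Heyl) without the filter or in the joint fit, and the no-color groups differed in 1 (Hes1) without the filter. DESeq2 called 1 (Hes6) for the change between the times with either protein.

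Leaving out each replicate gave 1966 to 2815 (WT Ngn3) and 3302 to 4502 (6S-A Ngn3) genes at 2 days, 0 to 5 between them, 67 to 231 and 192 to 349 at 8 days, and 0 to 2 between the proteins at 8 days. Of the 10 genes, 3 to 5 and 3 to 4 were called at 2 days, and 0 to 1 for the change with WT Ngn3. The log2 fold change of Hes1 with 6S-A Ngn3 at 2 days turned to 0.0212 with scran size factors and 0.0046 with the first repeat. Without single replicates it ran from -0.255 to 0.126, above 0 without 6S-A Ngn3 replicate 1 or 2 or GFP only replicate 3, and with WT Ngn3 from -0.0216, without GFP only replicate 1, to 0.265. With the first repeat, Notch2 was -0.0548 and Hey1 1.66 with 6S-A Ngn3. The Hes6 change between the proteins was -0.0049 without 6S-A Ngn3 replicate 2 and -0.11 without WT Ngn3 replicate 1 of 8 days, and ran up to 0.68.

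Groups share replicate numbers. Same-numbered samples correlated at 0.0653 to 0.284 at 2 days and 0.0879 to 0.525 at 8 days in their deviations from group means, not above 0.1 in every pair, and the numbers were not taken as pairing. Samples with different numbers correlated at -0.244 to 0.0152 and -0.354 to 0.121, so that at 2 days every sample correlated best with its own number, a hint from the data and not from the design. With the replicate block the genes called were 4291 for WT Ngn3 and 147 between the proteins at 2 days, and 472 and 704 at 8 days. Under the block Hes6 was 1 gene of the family called between the proteins at 2 days (log2 0.39, adjusted p = 0.0396, edgeR), where its differences by number were 0.39, 0.41 and 0.38. It was also 1 called with WT Ngn3 at 8 days and 1 for its change, and Nrarp passed with 6S-A Ngn3 at 2 days (adjusted p = 0.0367, edgeR). Depth limits Hes5, Heyl and Notch4 at 8 days, where 3 reads are worth up to 1.73 CPM.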
